A study of Homo sapiens with 8 samples.

Results

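The genes described here were 39 members of glucose metabolism and the hypoxia response, taken by symbol from the 86369 rows of the count matrix. They comprise glucose and lactate transporters, the enzymes of glycolysis and their regulators, the alpha subunits of hypoxia-inducible factor (HIF), and genes that HIF is known to induce. The cells were HepG2, an established human hepatocellular carcinoma line, grown in DMEM with serum and transfected by lipofection. One group of 4 libraries received a negative control siRNA (siCtrl) and the other group of 4 received an siRNA against NAT10 (siNAT10), an RNA cytidine acetyltransferase, and RNA was taken 2 days later. Replicates 1 and 2 of each group were labelled batch 1 and replicates 3 and 4 batch 2. The labels mention neither altered oxygen nor a change of glucose, and both groups went through transfection. All libraries come from 1 cell line, and the labels do not say that replicates were separate cultures, so the p-values measure only the spread between these libraries, which may be technical.

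Glycolysis splits glucose into pyruvate. Its early phase, which holds hexokinase, phosphofructokinase and aldolase, spends ATP as a whole. Its later phase, which holds GAPDH, phosphoglycerate kinase, enolase and pyruvate kinase, returns it. Lactate dehydrogenase and the lactate carrier SLC16A3 dispose of the end product. HIF couples this pathway to oxygen: prolyl hydroxylases of the EGLN family mark the alpha subunits HIF1A and EPAS1 for destruction while oxygen is present, and the stabilised subunits bind DNA with ARNT at short sites with the core ACGTG or GCGTG. In liver and liver cancer cells these targets include transporters, nearly every glycolytic enzyme, VEGFA and genes of mitophagy and lipid storage.

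RefSeq promoter windows on GRCh38.p14 were found for 34 of the 39 members (56 windows, some genes having several starts), and all 56 matched the hg38 genome letter for letter. The 250 bases before each annotated start were searched for ACGTG on both strands, where CACGTG reads as ACGTG on either strand and so counts once for each. At least 1 match lay in 23 of the 56 windows (41.1%), against 18.5% of all 35116 RefSeq windows of the same length. With GCGTG added the shares were 67.9% and 43.2%. Of the 5 members printed here, CA9 and PGK1 differed little between the batches, and ANKRD37 and BNIP3 were lower in batch 2. EPAS1, the HIF subunit called lower in siNAT10, had no ACGTG in this window but held 1 GCGTG. Matches to GCGTG are not capitalised. Capitals mark ACGTG or its complement CACGT, and each sequence runs 5′ to 3′ toward the start site. They lie at chr9:35673678-35673927 (CA9, plus strand), chrX:78103998-78104247 (PGK1, plus), chr4:185396591-185396840 (ANKRD37, plus), chr10:131981924-131982173 (BNIP3, minus) and chr2:46297157-46297406 (EPAS1, plus).
CA9: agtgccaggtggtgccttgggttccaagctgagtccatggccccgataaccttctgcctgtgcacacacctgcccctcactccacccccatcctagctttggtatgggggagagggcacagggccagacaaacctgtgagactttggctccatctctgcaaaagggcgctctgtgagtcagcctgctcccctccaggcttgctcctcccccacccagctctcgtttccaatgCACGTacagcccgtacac
PGK1: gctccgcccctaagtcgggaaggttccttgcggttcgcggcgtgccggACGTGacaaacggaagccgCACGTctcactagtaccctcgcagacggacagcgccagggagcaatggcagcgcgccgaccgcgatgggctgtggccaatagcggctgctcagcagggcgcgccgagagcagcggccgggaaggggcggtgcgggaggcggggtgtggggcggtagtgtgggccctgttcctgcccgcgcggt
ANKRD37: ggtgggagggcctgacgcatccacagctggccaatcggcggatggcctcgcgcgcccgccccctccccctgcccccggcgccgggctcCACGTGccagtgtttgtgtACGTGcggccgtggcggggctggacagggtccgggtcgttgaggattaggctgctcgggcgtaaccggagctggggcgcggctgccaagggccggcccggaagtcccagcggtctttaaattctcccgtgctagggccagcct
BNIP3: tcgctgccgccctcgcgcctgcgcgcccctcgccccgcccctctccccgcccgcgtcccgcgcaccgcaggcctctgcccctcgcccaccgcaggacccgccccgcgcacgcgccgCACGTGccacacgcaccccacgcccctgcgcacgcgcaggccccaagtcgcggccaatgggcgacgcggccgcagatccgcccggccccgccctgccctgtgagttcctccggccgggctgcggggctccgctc
EPAS1: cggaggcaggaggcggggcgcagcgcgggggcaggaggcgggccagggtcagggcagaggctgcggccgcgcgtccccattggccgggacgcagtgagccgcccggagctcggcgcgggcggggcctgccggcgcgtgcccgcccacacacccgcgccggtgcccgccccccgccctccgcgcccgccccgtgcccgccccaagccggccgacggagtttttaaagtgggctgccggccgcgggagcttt

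The match nearest a start among these 5 began 18 bases upstream of the CA9 start. ANKRD37 and BNIP3 each held a CACGTG, at 162 and 134 bases upstream, and PGK1 held matches at 202 and 183 bases. Among members called lower in batch 2, 10 of 26 windows held ACGTG, and among tested members not called between batches 8 of 16 did. Some genes have several windows, and counted by gene the numbers were 9 of 17 and 8 of 12. When GCGTG was added, 20 of the 26 and 10 of the 16 held a match (76.9% and 62.5%). Which set had the larger share thus depended on the core searched. These are matches of letters and not binding sites, and the count table does not bear on binding.

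Library totals ran from 9731718 to 27977110 counts, and batch 2 held the 2 shallowest, both siNAT10. The members took between 1.63% and 2.26% of each library's counts. NAT10, the target, stood at 52.6 ± 17.2 counts per 1000000 library counts (CPM) in siCtrl and 16.9 ± 5.04 CPM with siNAT10 (mean ± SD, n = 4 per group throughout). Its log2 fold change was -1.66 ± 0.14 (standard error; edgeR quasi-likelihood test, adjusted p 2.0e-05), lower in 4 of 4 siNAT10 libraries. The hepatocyte markers ALB, AFP, APOA1, TTR, TF and HNF4A had means between 157.1 and 4411 CPM, SERPINA1 had 5.91 CPM with siCtrl and 4.02 CPM with siNAT10, and the APOB row held only 7 counts in all libraries together. TF was called lower in siNAT10 (log2 fold change -0.49, adjusted p 0.023), lower in 4 of 4 libraries, and 6 of the 7 tested hepatocyte markers had a negative fold change. Of 8 markers of other cell types, PTPRC and KRT5 had 0 counts and PECAM1, CDH5, COL1A1 and DES were also near zero. The 8 together summed to 31.6 to 42.2 CPM with siCtrl and 30.2 to 38.0 CPM with siNAT10, nearly all of it ACTA2. The part of either marker list in the results was not tested, and in bulk RNA fewer cells of a type cannot be told apart from less RNA per cell.

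Few of these genes were called after NAT10 knockdown. Of the 39 members, 34 had enough counts to be tested, and 2 were called at an edgeR adjusted p under 0.05, both lower: the glucose transporter SLC2A3 and the HIF subunit EPAS1. That is 5.88% of the tested members, beside 2.28% of all 13840 tested genes called in either direction and 1.46% called lower. At an unadjusted p under 0.05 there were 10 members (29.4%, 8 lower and 2 higher), beside 15.7% of all tested genes. In 8 members the siNAT10 libraries were on the same side of both controls in either batch (23.5%, 6 lower and 2 higher), beside 14.7% of all genes. The median log2 fold change of the tested members was -0.07, with 20 lower and 14 higher, against -0.0024 over all tested genes. Without the batch term no member was called (3 had an unadjusted p under 0.05), DESeq2 called 4 and edgeR without a filter on low counts called 5, all lower.

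**Figure D1:**
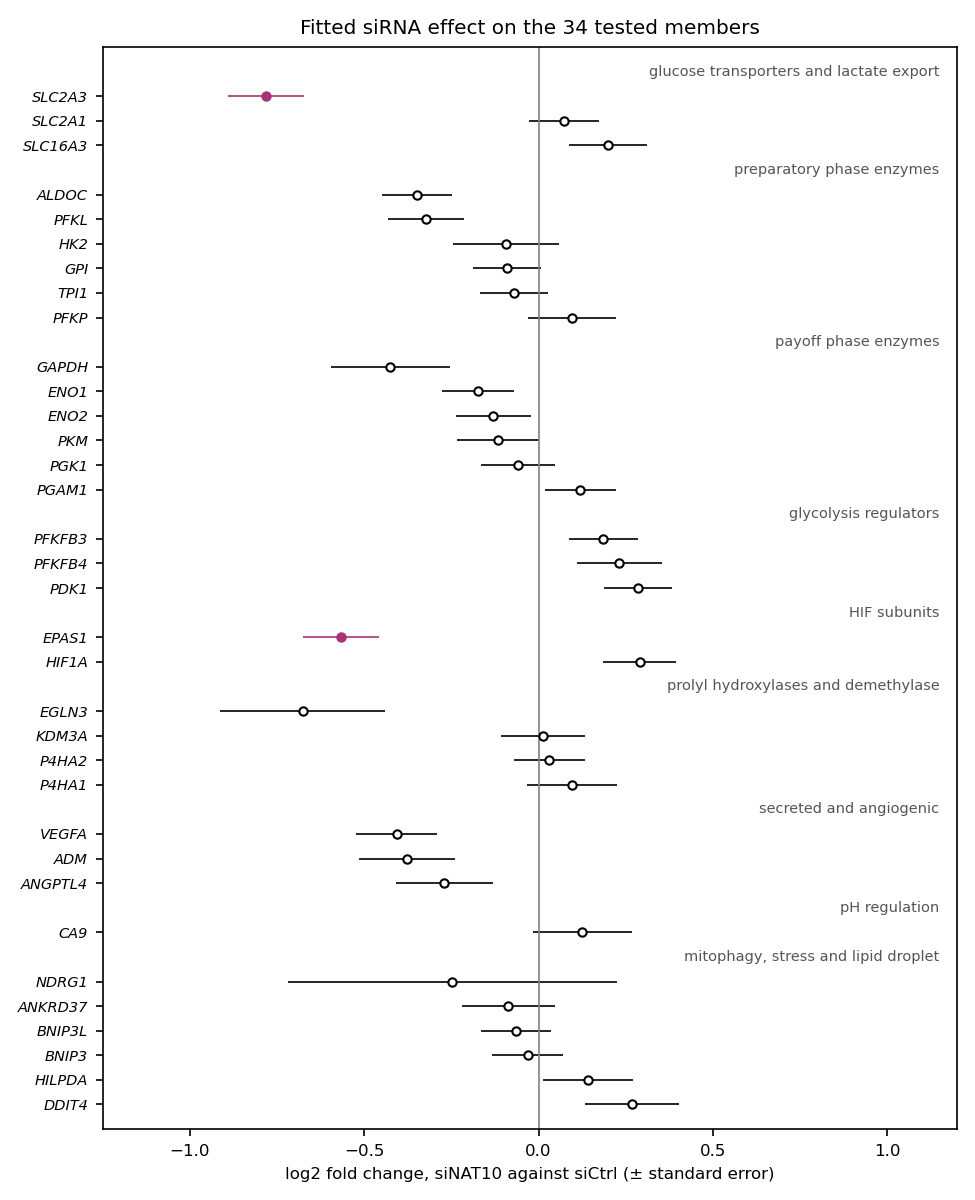
Fitted log2 fold change of each of the 34 tested members, siNAT10 against siCtrl, with its standard error as a horizontal bar (8 libraries, batch as a term). Filled points are the 2 called members, SLC2A3 at -0.78 and EPAS1 at -0.57; most of the others lie within 0.4 of 0 on either side.

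SLC2A3 encodes GLUT3, a glucose transporter of high affinity, and lies on chromosome 12 (ENSG00000059804; GRCh38 7919230 to 8019007, minus strand). The siCtrl libraries held 1121, 1285, 1154 and 940.3 CPM (replicates 1 to 4 here and below) and the siNAT10 libraries 722.2, 765.6, 539.1 and 606.2 CPM. The highest siNAT10 library was below the lowest siCtrl library, so the groups did not overlap. The mean fell from 1125 ± 142.2 to 658.3 ± 104.1 CPM, with a fitted log2 fold change of -0.78 ± 0.11 (adjusted p by edgeR 0.0013), which is 0.582 of the siCtrl level. The log2 fold change was -0.69 in batch 1 (adjusted p 0.026) and -0.87 in batch 2 (adjusted p 0.20), and SLC2A3 stayed called when any 1 of the 8 libraries was left out. SLC2A14, a near-identical neighbour that could share reads with SLC2A3, stood at 68.9 ± 12.5 CPM with siCtrl and 75.5 ± 18.1 CPM with siNAT10 (log2 fold change 0.12, adjusted p 0.60).

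The other carriers, SLC2A1 and SLC16A3, were not called by edgeR or DESeq2. SLC2A1 encodes GLUT1, the transporter most often used as a HIF readout, and ran from 427.4 to 547.9 CPM with siCtrl and from 458.3 to 556.5 CPM with siNAT10, with a log2 fold change of 0.07 ± 0.10 (adjusted p 0.79). Taken over both batches the groups overlapped. Within batch 1 both siNAT10 libraries (458.3 and 518.5 CPM) lay above both controls (443.2 and 427.4 CPM), and within batch 2 the groups overlapped. SLC16A3 encodes MCT4, which exports lactate. Its siCtrl values were 1615, 2080, 1036 and 1228 CPM and its siNAT10 values 2026, 2181, 1238 and 1384 CPM, a log2 fold change of 0.20 ± 0.11 (adjusted p 0.42). In both groups the batch 2 libraries of SLC16A3 were below those of batch 1. CSNK1D lies on the other strand over 67.2% of the last 500 transcript bases of SLC16A3, and a long non-coding RNA with 7 counts over 99.4% of those of SLC2A1, so the SLC16A3 count in particular is uncertain without a stated strand setting.

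**Figure D2:**
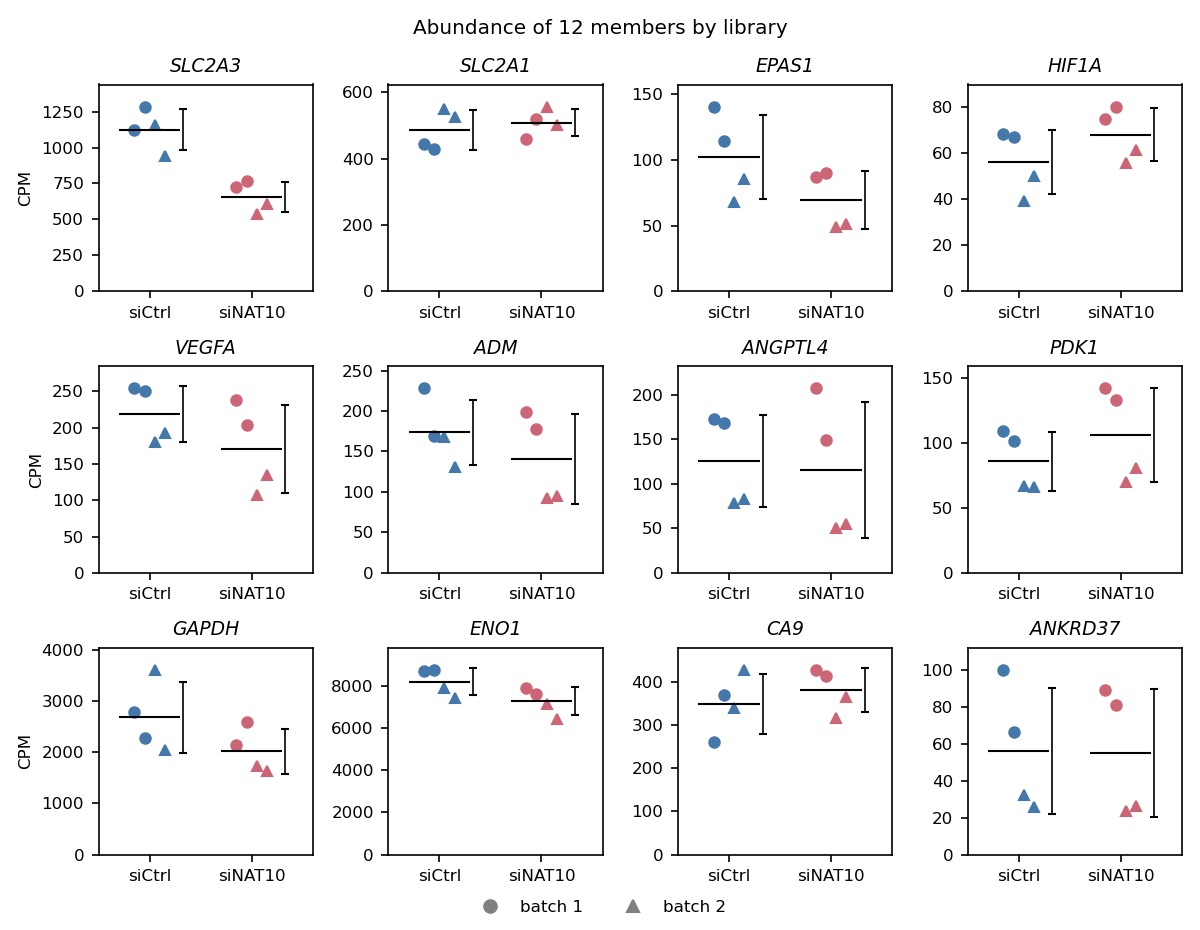
CPM of 12 members in each library (circles batch 1, triangles batch 2; siCtrl blue, siNAT10 red), with the mean as a line and the SD as a bar, n = 4 per group, each panel on its own axis from 0. SLC2A3 separates the siRNA groups completely, whereas ANKRD37 and ANGPTL4 separate the batches.

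Among the enzymes of the energy-spending phase, 0 of 6 tested were called by edgeR, and DESeq2 called ALDOC. At an unadjusted edgeR p under 0.05 there were 2 of the 6, both lower, beside 15.7% of all tested genes. ALDOC, the aldolase C isozyme, had the largest change of them. Its siCtrl libraries lay tightly at 60.1, 59.4, 64.1 and 61.7 CPM and its siNAT10 libraries at 40.3, 49.2, 50.03 and 53.8 CPM, so every siNAT10 library was the lower. The log2 fold change was -0.35 ± 0.10 (adjusted p by edgeR 0.084; 0.041 in DESeq2). PFKL, the liver form of phosphofructokinase, stood at 170.2 ± 22.9 and 137.0 ± 28.7 CPM, giving a log2 fold change of -0.32 ± 0.11 (adjusted p by edgeR 0.14), and was lower in siNAT10 within each batch. TPI1, triose phosphate isomerase and the most abundant of this group, had 799.8, 776.0, 764.8 and 723.3 CPM with siCtrl and 742.6, 795.3, 728.1 and 654.2 CPM with siNAT10, a log2 fold change of -0.07 ± 0.10 that did not exceed the spread. HK2, an inducible hexokinase, was at 14.6 ± 3.41 and 13.9 ± 4.05 CPM. The isomerase GPI was at 381.1 ± 32.96 and 358.3 ± 36.8 CPM, and the platelet-type phosphofructokinase PFKP at 24.1 ± 2.89 and 25.7 ± 4.49 CPM. The adjusted p of HK2, GPI and PFKP ran from 0.72 to 0.83.

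Of the 6 tested enzymes of the energy-yielding phase and after, 0 were called by edgeR. Only 1, GAPDH, had an unadjusted edgeR p under 0.05, beside 15.7% of all tested genes. DESeq2 called 0 of them. ENO1, enolase 1, was the most abundant member, at rank 6 of all tested genes by mean CPM (counts of 3′ ends do not scale with transcript length). It had 8739, 8771, 7905 and 7451 CPM with siCtrl and 7939, 7625, 7156 and 6433 CPM with siNAT10, lower within each batch, with a log2 fold change of -0.17 ± 0.10 (adjusted p by edgeR 0.45). GAPDH, often used as a constant reference, varied widely. Its siCtrl libraries held 2789, 2283, 3605 and 2036 CPM and its siNAT10 libraries 2132, 2596, 1721 and 1636 CPM, so the groups overlapped in batch 1. Its log2 fold change was -0.43 ± 0.17 (adjusted p by edgeR 0.23) and dropped to -0.17 without siCtrl replicate 3, the library with the highest value. A non-coding RNA with 3 counts lies on the other strand over 84.4% of the GAPDH 3′ end, and GENCODE lists 65 numbered GAPDH pseudogenes, which together held 31 counts. PGK1, which makes the first ATP of this phase, was at 823.2 ± 85.0 and 789.7 ± 46.8 CPM. The mutase PGAM1 was at 104.5 ± 9.39 and 114.1 ± 16.5 CPM, the neuronal enolase ENO2 at 147.7 ± 24.7 and 136.1 ± 26.9 CPM, and the pyruvate kinase PKM at 210.2 ± 23.8 and 197.2 ± 49.1 CPM. Their log2 fold changes ran from -0.13 to 0.12, within the spread between libraries. Taking both phases, 10 of the 12 tested enzymes had a negative fold change (median -0.10), beside 6968 of all 13840 tested genes. In batch 1 alone 7 of the 12 were lower (median -0.03), and in batch 2 alone 10 were (median -0.21).

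The 3 regulators of the pathway all had positive fold changes, none called by edgeR or DESeq2. An unadjusted edgeR p under 0.05 was found for 1 (PDK1), beside 15.7% of all tested genes. PDK1 encodes a mitochondrial kinase that inhibits pyruvate dehydrogenase and so limits the conversion of pyruvate to acetyl-CoA. It had 109.4, 101.7, 66.7 and 65.9 CPM with siCtrl and 142.1, 132.8, 70.0 and 80.9 CPM with siNAT10, each siNAT10 library above both controls of its batch, a log2 fold change of 0.28 ± 0.10 (adjusted p by edgeR 0.15). PFKFB4 and PFKFB3 make and break fructose 2,6-bisphosphate, the activator of phosphofructokinase. PFKFB4 had 150.5, 138.2, 71.8 and 98.6 CPM with siCtrl and 197.5, 190.4, 79.8 and 94.0 CPM with siNAT10, a log2 fold change of 0.23 ± 0.12 (adjusted p 0.38). Its siNAT10 libraries were the higher in batch 1 and overlapped the controls in batch 2. PFKFB3 stood at 104.5 ± 26.3 and 120.8 ± 39.3 CPM, giving a log2 fold change of 0.19 ± 0.10 (adjusted p 0.39).

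The HIF alpha subunits differed in sign. EPAS1, which encodes HIF-2 alpha (ENSG00000116016; chromosome 2, 46293667 to 46386697, plus strand), had 140.6, 114.2, 67.7 and 85.5 CPM with siCtrl and 87.1, 90.1, 48.8 and 51.3 CPM with siNAT10. Each siNAT10 library was below both controls of its batch, while the batch 1 siNAT10 libraries lay above the batch 2 controls. EPAS1 fell by 0.57 ± 0.11 on the log2 scale (adjusted p by edgeR 0.011), to 0.675 of the control level, with -0.52 in batch 1 (adjusted p 0.076) and -0.61 in batch 2 (adjusted p 0.48). Its call was lost without siCtrl replicate 1 (adjusted p 0.066) and without siNAT10 replicate 2 (adjusted p 0.059), and without the batch term (adjusted p 0.62). HIF1A, which encodes HIF-1 alpha, had 68.1, 66.7, 39.3 and 49.9 CPM with siCtrl and 74.6, 79.9, 55.4 and 61.0 CPM with siNAT10. Every siNAT10 library was above both controls of its batch, with a log2 fold change of 0.29 ± 0.11 that was not called (adjusted p by edgeR 0.18). The difference between the subunits was not itself tested. Control of HIF1A by oxygen acts mainly on the protein, which was not measured.

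Among the enzymes that use oxygen, EGLN3, the HIF prolyl hydroxylase that is itself a HIF target, was scarce. It had 7.20, 4.66, 3.51 and 6.00 CPM with siCtrl and 5.14, 3.41, 2.51 and 2.44 CPM with siNAT10, and the groups overlapped in batch 1. Its log2 fold change of -0.68 had a standard error of 0.24 (adjusted p by edgeR 0.16). P4HA1 and P4HA2 are the catalytic subunits of the collagen prolyl hydroxylase. P4HA1 had 197.8, 239.0, 150.2 and 210.3 CPM with siCtrl and 238.1, 219.6, 163.7 and 229.4 CPM with siNAT10, a log2 fold change of 0.10 ± 0.13. P4HA2 was at 151.0 ± 20.5 and 154.3 ± 23.2 CPM. The histone demethylase KDM3A was at 90.4 ± 31.4 and 92.3 ± 37.2 CPM, giving a log2 fold change of 0.013 ± 0.12. The CPM SDs of KDM3A came mostly from the batches, with every batch 2 library below every batch 1 library. None of these 4 genes was called by edgeR or DESeq2. An unadjusted edgeR p under 0.05 was found for 1 (EGLN3), beside 15.7% of all tested genes.

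The secreted HIF targets all had negative fold changes. VEGFA, the main growth factor for blood vessels, had 254.1, 250.6, 179.6 and 193.2 CPM with siCtrl and 237.4, 204.0, 107.6 and 134.1 CPM with siNAT10. Each siNAT10 library was below both controls of its batch. The log2 fold change was -0.41 ± 0.12, short of the threshold in edgeR (adjusted p 0.081) and past it in DESeq2 (0.031). ADM and ANGPTL4 are given by library for their batch pattern, a choice made after the values were seen. ADM, the vasodilator peptide adrenomedullin, had 228.0, 168.9, 168.2 and 130.9 CPM with siCtrl and 198.8, 177.2, 91.9 and 94.3 CPM with siNAT10, a log2 fold change of -0.38 ± 0.14 (adjusted p by edgeR 0.18). ANGPTL4, an inhibitor of lipoprotein lipase, had 172.4, 168.6, 78.5 and 83.3 CPM with siCtrl and 207.0, 149.5, 50.3 and 54.6 CPM with siNAT10, a log2 fold change of -0.27 ± 0.14 (adjusted p by edgeR 0.37). For ADM and ANGPTL4 the groups overlapped in batch 1 and were apart in batch 2.

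CA9, the membrane carbonic anhydrase that acidifies the outside of hypoxic tumour cells, had 259.8, 369.0, 339.6 and 426.3 CPM with siCtrl and 426.6, 412.6, 316.3 and 365.2 CPM with siNAT10. The siNAT10 libraries were higher in batch 1 and overlapped the controls in batch 2, with a log2 fold change of 0.13 ± 0.14 (adjusted p by edgeR 0.73). DDIT4, also called REDD1, an inhibitor of mTORC1, was the most abundant of the stress genes. It had 1700, 1984, 978.5 and 1378 CPM with siCtrl and 2816, 2169, 1211 and 1313 CPM with siNAT10, a log2 fold change of 0.27 ± 0.13 (adjusted p by edgeR 0.35). The mitophagy receptors BNIP3 (385.8 ± 52.8 and 381.1 ± 86.4 CPM) and BNIP3L (97.0 ± 15.1 and 93.1 ± 16.5 CPM) had log2 fold changes of -0.03 and -0.06. HILPDA, a lipid droplet protein that blocks lipolysis, was at 229.5 ± 127.7 and 270.4 ± 193.8 CPM. ANKRD37, an ankyrin repeat protein, was at 55.9 ± 34.2 and 54.8 ± 34.8 CPM. For HILPDA and ANKRD37 the SD within each group exceeded the difference of the means, and the batch 2 libraries of both groups were the low ones. UFSP2 lies on the other strand over 85.8% of the ANKRD37 3′ end, so that count is uncertain. Of these 7 genes with NDRG1, none was called by edgeR or DESeq2 and none had an unadjusted edgeR p under 0.05.

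Rows near zero cannot be judged. The filter left out 5 members: ALDOA with 4 counts over all 8 libraries, EGLN1 with 6, LDHA with 18, CA12 with 68 and HK1 with 82. No library held more than 21 counts of any of them. NDRG1 passed the filter with 189 counts and a mean of 1.22 CPM, and its log2 fold change of -0.25 had a standard error of 0.47, so it is in effect not judged either. ALDOA, LDHA and HK1 encode the main aldolase, lactate dehydrogenase and hexokinase isozymes of many cells, while GAPDH and ENO1 were at 1636 CPM or more in every library. A near-zero row here cannot be read as absence of the gene's RNA. In GENCODE 44 the last 500 transcript bases of ALDOA lie wholly within exons of another protein-coding gene on the same strand (ENSG00000285043, 0 counts), those of EGLN1 do so for 91.8% (ENSG00000287856, 0 counts), and those of NDRG1 wholly within a non-coding gene (1 count). No such overlap was found for LDHA, HK1 or CA12. The 6 numbered LDHA pseudogenes and the 2 of ALDOA held 0 counts.

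The siRNA effect was next taken within each batch. In batch 1 alone 1 member was called, SLC2A3 (of 34 tested in both fits; 1.19% of all genes tested there were called). In batch 2 alone edgeR called 0 members and 0% of all genes, and NAT10 itself was not called (log2 fold change -1.58, adjusted p 0.086). There 8 of 33 members (24.2%) had an unadjusted edgeR p under 0.05, beside 7.04% of all genes. In batch 1 alone 8 of 34 members did, beside 1916 of all 14521 genes tested there. The median log2 fold change of the members was 0.05 in batch 1, with 14 of 34 lower, and -0.12 in batch 2, with 23 of 33 lower. Of the 33 members fitted in both, 13 were lower in both batches and 10 higher in both. Over all tested genes 4111 of 13261 were lower in both and 4100 higher in both, shares near those of the members. The siRNA-by-batch interaction was called in no member and in 0% of all tested genes in edgeR (DESeq2 called 1 gene, no member). At an unadjusted p under 0.05 there were 3 members (8.82%, beside 3.04% of all genes): ANGPTL4 with 0.07 in batch 1 and -0.62 in batch 2 (unadjusted p 0.0092), ADM with -0.08 and -0.68 (0.025), and CA9 with 0.42 and -0.16 (0.037). All 3 had an adjusted p of 1, so a difference between the batches is not shown.

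**Figure D3:**
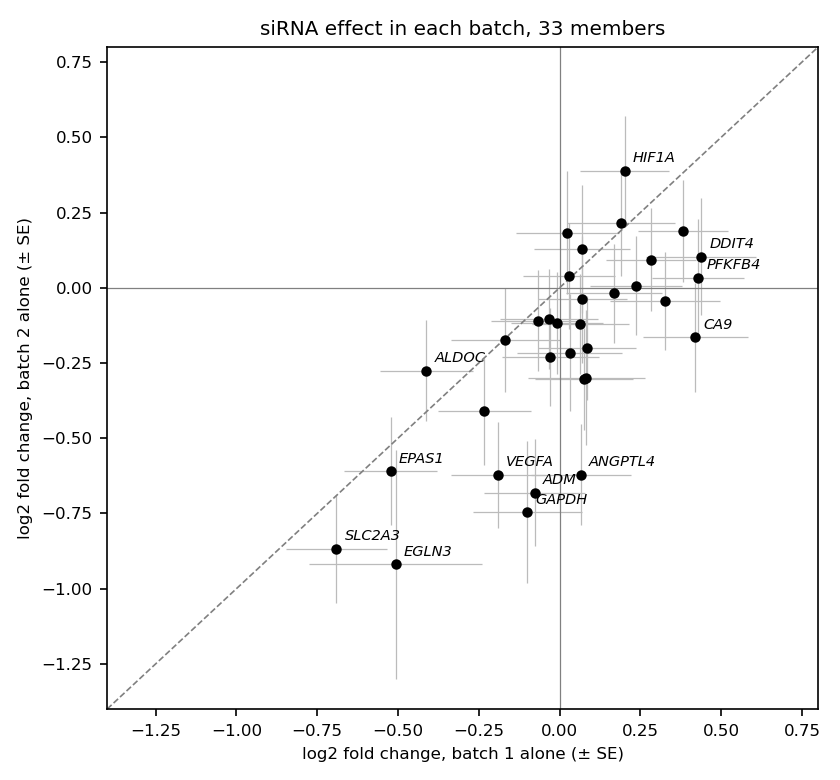
Log2 fold change of siNAT10 against siCtrl in batch 1 alone (x axis) and batch 2 alone (y axis) for the 33 members fitted in both, 2 libraries against 2 in each, with standard errors as bars; the dashed line marks equal values. SLC2A3 and EPAS1 lie low in both batches (-0.69 and -0.87, -0.52 and -0.61), and most points lie below the dashed line.

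These genes differed far more between the batches than between the siRNAs. With siRNA as a term, 20 of the 34 tested members were called between the batches, all 20 lower in batch 2. That is 58.8% of them, beside 12.2% of all tested genes called lower in batch 2 and 25.3% called in either direction. For 17 members (50%) every batch 2 library was below every batch 1 library, beside 11.2% of all genes. The edgeR calls lower in batch 2 included 10 of the 14 tested hypoxia-inducible genes (median log2 difference, batch 2 against batch 1, of -0.68) and 4 of the 12 tested glycolytic enzymes (median -0.21), and the batches did not overlap for 10 of the 14 and 1 of the 12. Over all tested genes the median was -1.0e-04. The largest differences, chosen after the values were seen, were in HILPDA, ANKRD37 and ANGPTL4. HILPDA had 339.7, 340.7, 515.6 and 335.8 CPM in batch 1 (siCtrl 1 and 2, siNAT10 1 and 2) and 116.4, 121.5, 111.0 and 119.0 CPM in batch 2, a log2 difference of -1.70 ± 0.13 (adjusted p by edgeR 7.8e-07), lower in 4 of 4 libraries. ANKRD37 had 99.7, 66.2, 88.9 and 80.8 CPM against 32.0, 25.6, 23.3 and 26.4 CPM, a log2 difference of -1.64 ± 0.14, and ANGPTL4 had one of -1.42 ± 0.14.

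All 3 regulators were called lower in batch 2, PFKFB4 at -0.96, PDK1 at -0.77 and PFKFB3 at -0.73 on the log2 scale, as were KDM3A (-0.95), DDIT4 (-0.81), EPAS1 (-0.78), ADM (-0.71), SLC16A3 (-0.69), VEGFA (-0.65) and HIF1A (-0.50). The remaining 7 calls (HK2, BNIP3, ENO2, PFKL, BNIP3L, PKM and P4HA2) lay between -0.51 and -0.31. CA9 and PGK1 had log2 differences of -0.0075 ± 0.14 and 0.0022 ± 0.11, and SLC2A1 had 0.21 ± 0.10 (adjusted p by edgeR 0.14). The labels do not say what separated the batches. Depth moved with them in part: batch 1 held 17347226 to 27977110 counts a library and batch 2 held 9731718 to 22512520; its part in the difference was not tested. In 1 batch 2 library, siNAT10 replicate 3, the tested hypoxia-inducible genes stood lowest, at a median of -0.69 from their mean log2 CPM, against -0.33 to -0.19 in the other batch 2 libraries.

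**Figure D4:**
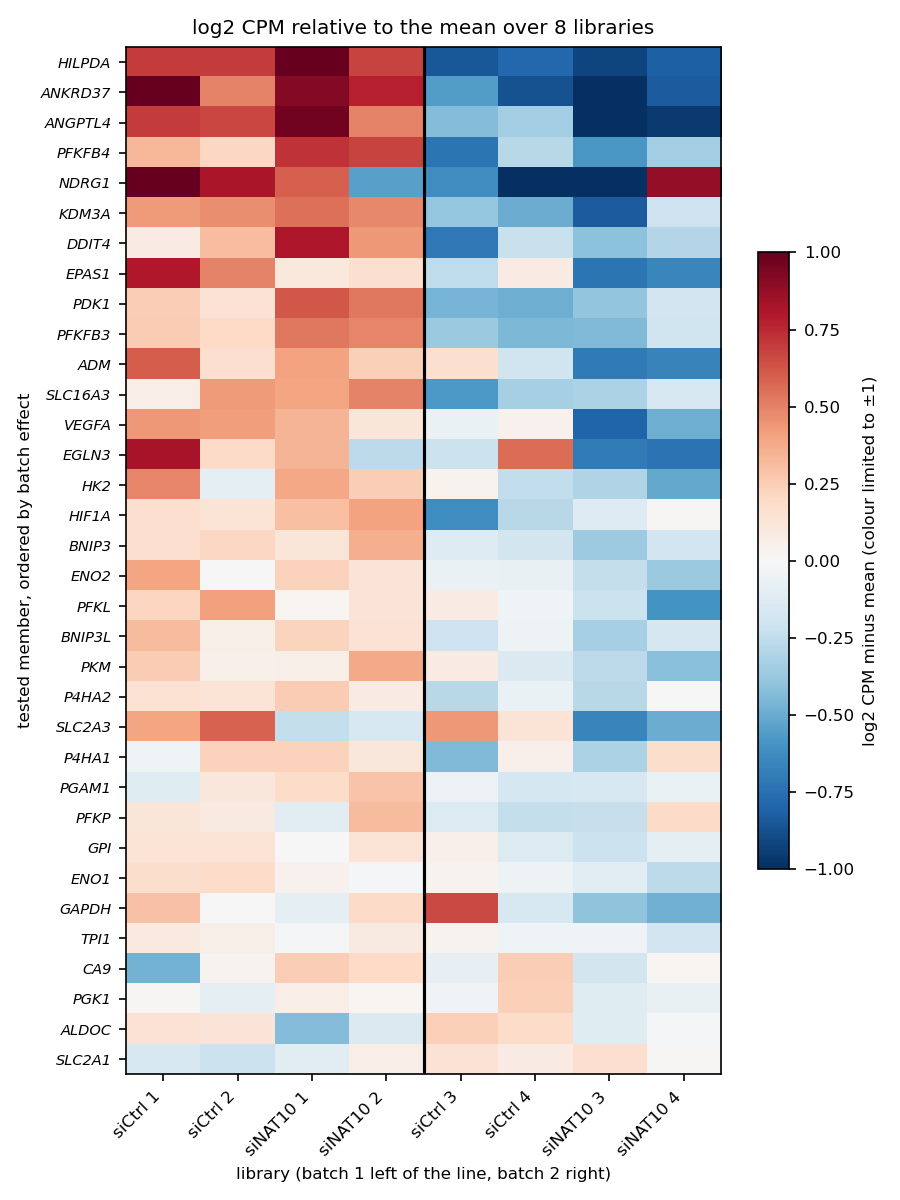
Log2 CPM of the 34 tested members in each library relative to the member's mean over 8 libraries (red higher, blue lower, colour limited to 1 in either direction), ordered by the batch difference. The top rows, HILPDA (-1.70), ANKRD37, ANGPTL4 and PFKFB4, are red in batch 1 and blue in batch 2 in both siRNA groups; the sparse NDRG1 row is mixed, and PGK1 and CA9 near the bottom show no such split.

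A wider list of 83 pathway genes gave 64 that could be tested, of which 2 were called (3.12%, beside the 2.28% of all genes), both lower, CITED2 and LOX. With the replicate number as a block 4 were called, PFKFB2 and IGFBP1 joining them. CITED2 competes with HIF for its coactivators and is itself HIF-induced. It had 57.7, 61.7, 56.6 and 62.9 CPM with siCtrl and 33.1, 35.1, 32.3 and 39.8 CPM with siNAT10, with no overlap. CITED2 fell by 0.77 ± 0.10 on the log2 scale (adjusted p by edgeR 8.9e-04) and stayed called in all 8 fits that left out 1 library. LOX, the collagen cross-linking oxidase, had 124.0, 120.1, 108.6 and 132.8 CPM with siCtrl and 90.8, 92.4, 66.3 and 83.1 CPM with siNAT10, also with no overlap, a log2 fold change of -0.55 ± 0.11 (adjusted p by edgeR 0.017). LOX lost its call on leaving out siCtrl replicate 1 (adjusted p 0.053), siNAT10 replicate 2 (0.060) or siNAT10 replicate 3 (0.067).

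By list, 0 of 19 other glycolytic and pyruvate genes were called, 1 of 13 HIF regulators and 1 of 32 other HIF targets. The medians were 0.016, 0.04 and -0.0056. Of the 19, 4 had an unadjusted edgeR p under 0.05 (21.1%, beside 15.7% of all tested genes), and DESeq2 called PDK3. At a mean of 8 CPM or more, the largest changes among the glycolytic genes were PFKFB2, a further fructose 2,6-bisphosphate enzyme, at -0.52 ± 0.16 (adjusted p by edgeR 0.12) and PDK3, a pyruvate dehydrogenase kinase, at 0.38 ± 0.11 (0.084). CUL2, the scaffold of the ligase that destroys HIF alpha, was at 0.23 ± 0.16 (0.52), and the collagen lysyl hydroxylase PLOD2 at 0.36 ± 0.13 (0.16). Between the batches, 20 of the 32 other HIF targets (62.5%) were called lower in batch 2 and 0 higher, beside 12.2% of all tested genes called lower and 25.3% called either way. Of the 19 glycolytic genes 3 were called lower (15.8%, near the share of all genes) and 3 higher (SLC2A8, MPC2 and TIGAR), and of the 13 HIF regulators 0 were called lower and 1 higher (ELOC); these 4 are named after their values were seen. Of this wider list 19 rows were near zero, among them LDHB with 1 count, EGLN2 with 1, SLC16A1 with 9, and MIF and PCK2 with 0.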

How the data were processed

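Gene expression in HepG2 cells was measured by QuantSeq 3′ mRNA sequencing in 8 libraries, 4 per group. The authors deposited 1 table of raw counts per Ensembl gene with 86369 rows, and all 8 sample columns were used (0 columns unused). Per the submitters' processing notes, reads were trimmed with Trim Galore 0.6.10 and cutadapt 3.5, aligned with STAR 2.7.9a to GRCh38 and counted with featureCounts of Subread. Which annotation release, strand option and rule for multiply mapped reads were used is not given in the sources used here. The kit's orientation differs between the series text and the sample protocol, so counts of genes that overlap on either strand are uncertain.

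Counts as deposited were fitted on the whole table with edgeR 4.0.16 (R 4.3.3): filterByExpr at its default minimum count of 10, TMM scaling, and a quasi-likelihood F test with batch and siRNA as terms, Benjamini-Hochberg adjusted over all tested genes at a threshold of 0.05. Near zero means not kept by that filter. CPM are on TMM-scaled library sizes, and log2 deviations use a prior count of 2. The standard error is the absolute log2 fold change divided by the square root of F. Each batch alone, the interaction of batch and siRNA, and the batch term were fitted likewise. Alternatives were DESeq2 1.42.0, RLE factors, library size alone, 2 other count filters, no batch term, a replicate block, and leaving out each library. The fit was tested on simulated data.

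Same-numbered libraries of the siRNA groups deviated together (correlations 0.392, 0.384, 0.451 and 0.356), but after removing batch means the correlations were -0.062 in batch 1 and 0.167 in batch 2. The labels tie the numbers only to the batch. The reported fit has batch and no replicate block, and the block is an alternative whose value is given where it changes a count.

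The members and the wider lists were chosen with earlier results of these data known. All members are named. Values by library are given for members called in an siRNA fit, for the largest change and the highest level in each role, and for both HIF subunits. Of the wider list, the text names called genes and, at 8 CPM or more, the largest changes in each direction. Overlaps of 3′ ends (last 500 transcript bases) come from GENCODE 44.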

Additional observations from a re-analysis of the deposited data

Results flagged for a closer look

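ENO2, the neuronal enolase, had 184.4 CPM in siCtrl replicate 1, while the other 3 siCtrl libraries lay between 133.0 and 139.7 CPM, so this library stood far from the rest of its group. It was the 1 such case among 68 groups of 4 libraries examined (each of the 34 tested members in both siRNA groups). For groups of like libraries chance gives about 1 in 20, or 3.4. Each group here pooled both batches, so that rate may not apply. ENO2 was itself lower in batch 2 (log2 difference -0.38), and the flagged library was in batch 1.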

How the results depend on the processing

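Of the 315 genes called, DESeq2 gave 561, no filter on low counts 595, no batch term 15, batch 1 alone 173, batch 2 alone 0, and leaving out 1 library 75 to 286. Of the 2 members called, the counts were 4, 5, 0, 1, 0 and 1 to 2 in the same order. Of the 2 other pathway genes, they were 5, 6, 1, 1, 0 and 1 to 3. Batch 2 alone, with 0 genes called, had 946 at an unadjusted p under 0.05. With the replicate block (pairing by number) 454 genes, 2 members and 4 other pathway genes were called, and no other call on a member changed. The interaction, with 0 genes called, gave 1 in DESeq2, 15 without the filter and 0 to 2 with 1 library left out. The members' median log2 fold change of -0.07 was 0.047 in batch 1 alone and -0.10 to -0.01 with 1 library left out. Scaling by library size alone moved the split of calls from 113 higher and 202 lower to 138 and 149, and the median of all genes to 0.04. Over 576 single-member fits, 535 kept direction and side of the threshold, 7 lost a call, 5 gained one, and 29 changed sign in 13 members without a call. SLC2A3 lost its call without the batch term (edgeR adjusted p 0.093) and in batch 2 alone (0.20). The members called between batches stayed between 15 and 22. The cause of these differences was not tested, beyond the fewer libraries in the batch fits. The 5 members near zero, with 4 to 82 counts each over all libraries, were left untested by the filter of the main fit. In batch 1 alone HK1 and CA12 passed it, with log2 fold changes of -0.24 ± 0.66 and 0.02 ± 0.60 that cannot be judged.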
